A study of Mus musculus with 16 samples.

Results

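The genes for the protein subunits of the cytosolic ribosome were examined in peak lists from chromatin immunoprecipitation followed by sequencing (ChIP-seq) of mouse macrophages. The members were chosen by name: protein-coding genes of the GRCm38 RefSeq table whose symbol is Rpl or Rps followed by a number, with Rplp0, Rplp1, Rplp2 and Rpsa, and without pseudogenes and the Rps6k kinases. This gave 85 of 21883 protein-coding genes on chromosomes 1 to 19, X and Y, 53 for the large subunit and 32 for the small one. The rule uses symbols and the gene type, not measured values.

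The ribosome is built in the nucleolus and cytoplasm from ribosomal RNA and one copy of most of these proteins, and their genes are among the most actively transcribed in growing cells. Many of their transcripts begin with a C followed by a run of pyrimidines, the 5′ terminal oligopyrimidine tract through which mTOR signalling and LARP1 control their translation, and many of their introns hold small nucleolar RNAs. Some members also act outside the ribosome: RPL5 and RPL11, bound with 5S ribosomal RNA, inhibit MDM2, the ubiquitin ligase that degrades p53.

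The cells were primary macrophages from the marrow of adult C57BL/6 mice, cultured for 5 days with the macrophage growth factor M-CSF. EZH2, the methyltransferase that places H3K27me3, was mapped in wild-type macrophages primed with LPS and then given nigericin, a potassium ionophore, and in untreated wild-type macrophages. SIRT1, an NAD-dependent deacetylase, was mapped in untreated Ezh2 knockout cells, in untreated wild-type cells labelled as their Ezh2 counterpart, in untreated p53 knockout cells and in untreated wild-type cells labelled as their p53 counterpart. The transcription factor p53, H3K27ac (acetylated lysine 27 of histone H3, a mark of active promoters and enhancers) and H3K27me3 (the trimethylated form, a mark of Polycomb repression) were each mapped in wild-type macrophages without treatment. The labels name no allele or Cre driver for the knockouts, and do not say whether animals were pooled. Each of the 9 groups with a peak list was 1 library, so no difference between conditions has a replicate check, no test between groups could be made, and every interval below covers counting error only.

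The 9 lists held 5068 to 88037 peaks, and the most common local background ran from 0.722 fragments in a SIRT1 list to 3.05 in the H3K27me3 list. Fold is the authors' value for a peak, fragments at the summit over local background, each with 1 added, and it ranks a peak only within its list. The weakest SIRT1 peaks rested on 3 or 4 fragments, and of the 18170 to 74767 peaks in a SIRT1 list 180 to 524 had a q-value of at most 0.05. H3K27ac peaks lay at 10 of 10 macrophage genes such as Csf1r and Adgre1 (3.05-fold to 10.8-fold), at 1 of 7 neutrophil, 3 of 7 lymphocyte, 1 of 6 stromal and 0 of 5 erythroid genes. The share of these other cells in the values below was not tested. The lists cannot check the deletions: Ezh2 had a SIRT1 peak in the wild-type list (3.30-fold) and none in the Ezh2 knockout list, and Trp53, which encodes p53, had one in each of the 4 SIRT1 lists.

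A member was counted when a peak overlapped its gene bounds plus 1 kb on either side by at least 1 bp. Ribosomal protein genes are short, with a median of 3175 bp against 17170 bp for all protein-coding genes, and a longer gene has more room for a peak. Each count is therefore given beside the share of all protein-coding genes and beside the share of the 8795 that are no longer than the longest member, Rps15a (11774 bp). The second comparison caps length and does not match it, as those genes had a median of 4203 bp. It was added after the data had been seen.

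RefSeq promoter windows of the same build were at hand for 65 of the 85 members, and those that the peaks turn on are shown first. Each of the following runs from 150 bases before to 30 bases after an annotated start, on the gene's own strand. Capitals mark an unbroken run of C or T that begins with a C at the start, and the letters CCGGAAG, the core of ETS-family sites. Rpl15 is shown because it alone had a SIRT1 peak of q at most 0.05, Rpl10a and Rps13 for the highest and lowest H3K27ac fold among members with a window, and Rplp0 as a stalk protein gene without H3K27ac. They lie at chr14:18270957-18271136 (minus strand), chr17:28328321-28328500 (plus strand), chr7:116334161-116334340 (minus strand) and chr5:115559317-115559496 (plus strand).
Rpl15: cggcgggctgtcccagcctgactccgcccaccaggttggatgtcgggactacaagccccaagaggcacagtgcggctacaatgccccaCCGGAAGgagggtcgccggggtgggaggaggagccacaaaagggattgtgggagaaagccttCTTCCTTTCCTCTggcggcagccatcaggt
Rpl10a: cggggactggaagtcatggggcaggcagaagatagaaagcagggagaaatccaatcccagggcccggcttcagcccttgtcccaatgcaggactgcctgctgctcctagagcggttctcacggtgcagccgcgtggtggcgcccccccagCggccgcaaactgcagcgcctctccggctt
Rps13: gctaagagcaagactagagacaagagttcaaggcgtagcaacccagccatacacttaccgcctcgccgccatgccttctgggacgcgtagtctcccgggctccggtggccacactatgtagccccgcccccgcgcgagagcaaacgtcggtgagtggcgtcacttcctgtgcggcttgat
Rplp0: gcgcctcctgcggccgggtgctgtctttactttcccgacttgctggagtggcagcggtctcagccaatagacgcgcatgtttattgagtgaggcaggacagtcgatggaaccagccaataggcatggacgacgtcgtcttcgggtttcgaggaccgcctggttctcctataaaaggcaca

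The Rpl15 window held the longest run of any member, 13 bases from its start, and CCGGAAG from 62 bases before it. Rpl10a has 2 annotated starts, of which the first is shown, and only the single C at that start is marked. Rps13 and Rplp0 had no C at the start and no CCGGAAG, and Rplp0 held TATAAA, the TATA box letters, from 17 bases after its annotated start.

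Shorter windows, from 10 bases before to 20 after the start, show how the members differ around the annotated start. The ends of transcripts were not measured here, so the first transcribed base may lie elsewhere. Rplp2, Rps6 and Rps27 carried a run, Rpl11, Rpl26 and Rps27l carried CCGGAAG just after the start, and Rps3, Rpl22 and Rps4x carried neither. They lie, on the strand named, at chr7:141447641-141447670 (Rplp2, plus), chr4:86857348-86857377 (Rps6, minus), chr3:90213629-90213658 (Rps27, minus), chr4:136053374-136053403 (Rpl11, minus), chr11:68901556-68901585 (Rpl26, plus), chr9:66946076-66946105 (Rps27l, plus), chr7:99483690-99483719 (Rps3, minus), chr4:152324426-152324455 (Rpl22, plus) and chrX:102189372-102189401 (Rps4x, minus). Rpl22 and Rps27l have more than one annotated start, of which the first is shown.
Rplp2: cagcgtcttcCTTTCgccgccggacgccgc
Rps6: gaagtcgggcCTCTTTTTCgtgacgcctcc
Rps27: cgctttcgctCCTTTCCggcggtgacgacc
Rpl11: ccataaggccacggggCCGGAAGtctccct
Rpl26: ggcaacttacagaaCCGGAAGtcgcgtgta
Rps27l: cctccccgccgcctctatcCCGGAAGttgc
Rps3: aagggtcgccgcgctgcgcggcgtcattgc
Rpl22: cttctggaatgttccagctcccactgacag
Rps4x: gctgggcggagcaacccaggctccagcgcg

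Over all 65 members with a window of 250 bases before to 50 after the start, 26 held CCGGAAG on either strand (40%), against 12.9% of the 17491 protein-coding genes with a window. In 20 of the 26 the nearest copy began within 100 bases of the start. A run of at least 5 pyrimidines beginning with C at the annotated start itself was present in 14 members (21.5%), against 2.67% of all, and allowing the C to lie within 5 bases of the start gave 30 members (46.2%) against 21.5%. The 14 were Rpl14, Rpl15, Rpl28, Rpl32l, Rpl35, Rpl35a, Rpl38, Rplp2, Rps10, Rps15a, Rps18, Rps21, Rps27 and Rps6. The other motifs searched on both strands were GGGCGG, the Sp1 letters, in 40 members (61.5% against 49.2%), AAGATGGC, the YY1 letters, in 6 (9.23% against 3.57%), CACGTG, the E-box of MYC and its relatives, in 6 (9.23% against 8.91%), and TATAAA in 8 (12.3% against 14.8%). The E-box and TATA shares were near those of all genes. A match is a description of these letters in this window, and matches of different motifs were counted whether or not they overlapped.

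H3K27ac covered most of the group. In untreated wild-type macrophages 66 of the 85 members had a peak (77.6%), against 33.7% of all protein-coding genes and 21.8% of those no longer than Rps15a. Both subunits were alike, with 41 of 53 genes of the large subunit (77.4%) and 25 of 32 of the small one (78.1%). In 61 of the 66 a peak lay on the gene itself, and in Rpl10, Rpl36a, Rpl36al, Rpl7l1 and Rps28 it lay within 1 kb outside. Of all 85 windows, 33 also held part of another protein-coding gene.

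**Figure D1:**
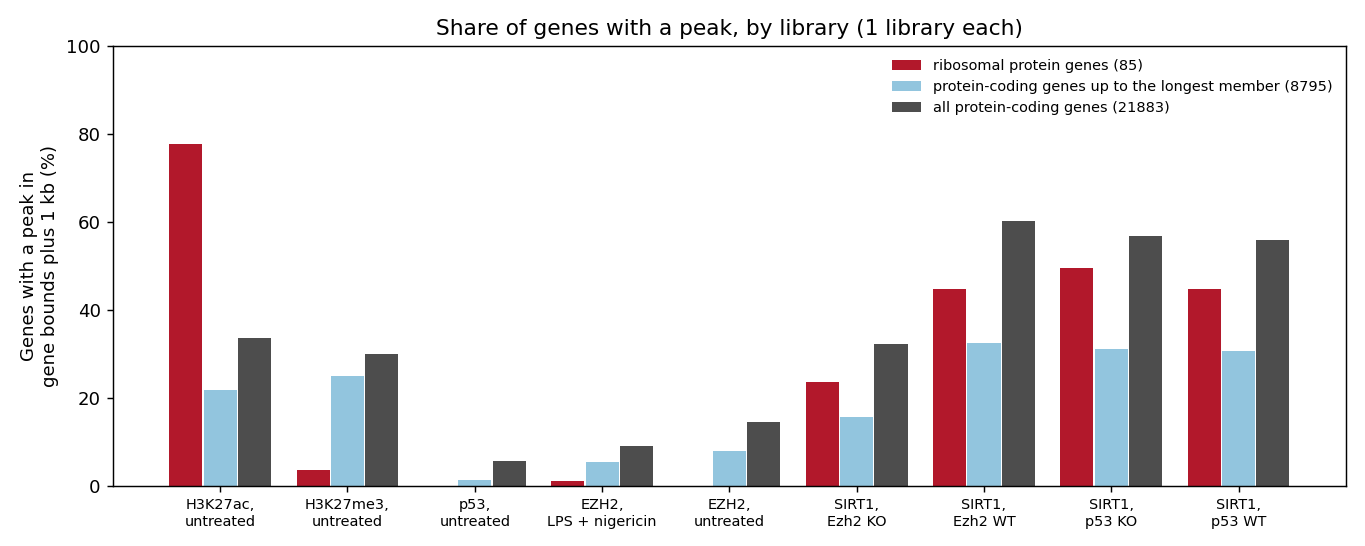
Share of genes with at least 1 peak (%, vertical axis) in each of the 9 libraries, for the 85 ribosomal protein genes (red), the 8795 protein-coding genes no longer than the longest of them (light blue) and all 21883 protein-coding genes (grey), with 1 library per group and no error bars. The ribosomal protein genes stand above both comparisons for H3K27ac (77.6%), below both for H3K27me3 (3.53%) and EZH2, and between them for SIRT1.

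The fold of these peaks was modest. The highest peak per member had a median fold of 2.70 (range 1.62 to 4.79), against 3.79 for all protein-coding genes with a peak and 3.39 for the short ones. Only 17 of the 66 stood above 3.34, the median of the whole list. The mark was therefore frequent at these genes without being high by this measure. Of the 66 members, 46 had 1 peak, 16 had 2 and 4 had more, with 7 in Rps15a.

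The highest folds were at Rpl7 (4.79-fold, chr1:16104703-16105574) and Rpl10a (4.75-fold, chr17:28324863-28330044), both of the large subunit. The Rpl10a peak was the widest of the group at 5182 bp and also covered part of Fance, a DNA repair gene. Rpl24 followed at 4.05-fold, Rps15a at 3.89, Rpl19 and Rpl28 at 3.68 each, Rps28 at 3.63, Rpl36a at 3.59 and Rpl10 at 3.51. Some of these peaks were small and away from the start. The Rps15a peak had 17 fragments and a summit 9320 bp downstream of the start, and the Rpl28 peak had 23, 1407 bp downstream. The Rpl19 peak had 27 fragments and a summit at −1853 bp, upstream of the nearest start with a window but inside the gene bounds. Near the start Rps15a stood at 2.62-fold and Rpl19 at 2.11-fold. The Rpl36a peak lay outside the gene over Btk, a kinase gene of B cells and myeloid cells, and both Rps28 peaks lay outside the gene over Ndufa7, a gene of respiratory complex I. For Rpl10a, Rpl36a and Rps28 the peak cannot be given to one gene of the pair. The peaks named for Rpl7 and Rpl10 lay 270 bp and 810 bp outside the gene and overlapped no other protein-coding gene.

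At the low end were Rps13 (1.62-fold), Rpl14 (1.63), Rpl21 (1.72), Rps3 (1.77) and Rps27a (1.93). Rps3 lines the entry channel for mRNA, and Rps27a is made as a fusion with ubiquitin. Low fold did not mean few fragments: Rpl21 had 67 at its summit over a background of 38.6, and Rps27a 63 over 32.1. Rpl7, at the top, had 59 over 11.5.

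**Figure D2:**
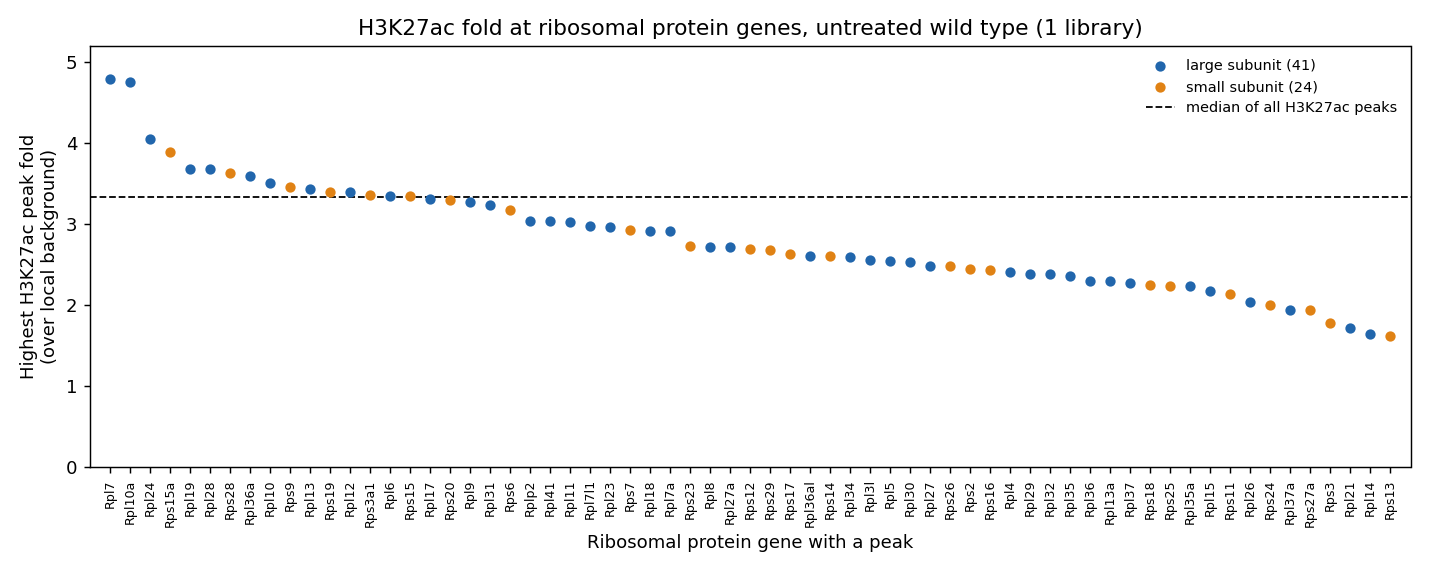
Highest H3K27ac fold over local background (vertical axis, linear) at 65 of the 66 ribosomal protein genes with a peak, in falling order, coloured by subunit, in 1 library of untreated wild-type macrophages. The dashed line is the median of all H3K27ac peaks (3.34), and 16 of the members drawn lie above it.

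Most members with a summit near the start had it just inside the gene. Of the 65 members with a known start, 46 had an H3K27ac summit within 1 kb of it (70.8%), against 22.7% of the 17491 protein-coding genes with a known start. For 37 members the summit lay 0 to 500 bp downstream (56.9%), against 12.6% of all and 9.11% of the short ones. That gap includes how often a summit lay near the start at all. Among genes with a summit within 1 kb, the share was 80.4% of members, 55.4% of all and 55.6% of short genes. The median summit of the 46 was 245 bp downstream of the start (quartiles 74.5 and 338), close to the 236 bp of all 3965 genes with a summit there, whose quartiles were wider (−108 and 414 bp, upstream being negative). The peak reached over the start itself in 9 of the 46 (19.6%), against 35.6% of the 3965. Rps13, whose sequence is shown above, had its summit 168 bp downstream, Rpl15 225 bp, Rpl23 262 bp, Rps6 366 bp and Rpl11 439 bp. Others had their nearest summit upstream, among them Rpl10a at −842 bp from the first of its annotated starts, Rpl36al at −826 bp, Rps16 at −359 bp and Rpl4 at −329 bp. A summit within 500 bp upstream was present at 9 of the 65 members, and a member could also have one downstream.

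**Figure D3:**
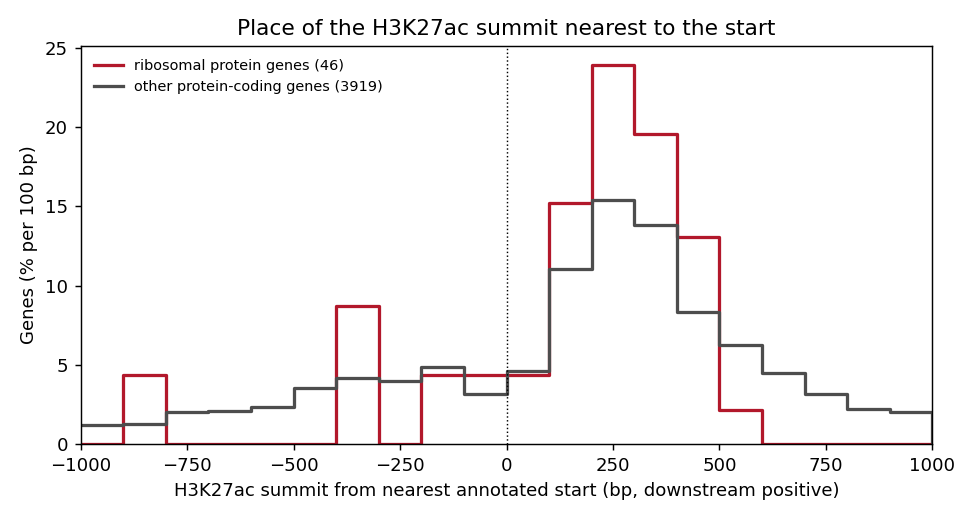
Position of the H3K27ac summit nearest to an annotated start (bp, downstream positive, in steps of 100 bp) as a share of genes (%), for the 46 ribosomal protein genes and the other 3919 protein-coding genes with a summit within 1 kb, from 1 library. The ribosomal protein genes are gathered between 100 and 500 bp downstream, and the median over members is 245 bp.

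Among genes with such a summit near the start, the members had more fragments and also a higher local background. They had a median of 49.5 fragments at the summit (range 28 to 91), against 43 over all 3965 genes, and 34 of the 46 stood above that value. Their median background was 18.9 fragments (range 10.6 to 42.6) against 13.9, and 42 of 46 stood above it. The median fold was 2.48 against 2.96, with 12 of 46 above. Peak width was alike, with medians of 910 and 908 bp.

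Single members show how the pair of values makes the fold. Rpl19 had the most fragments of the group, 91, but over a background of 42.6, which gave 2.11-fold at that summit. Rpl18 had 78 over 26.1 (2.92-fold) and Rpl23, a large subunit protein that also binds MDM2, 77 over 25.4 (2.96-fold). Rpl24, with 60 over 14.0, reached 4.05-fold. Rps13 had 42 over 25.6 and stood at 1.62-fold, so that the lowest and the second highest near-start folds came from summits of 42 and 60 fragments. The part that the background plays in the low folds was not tested.

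**Figure D4:**
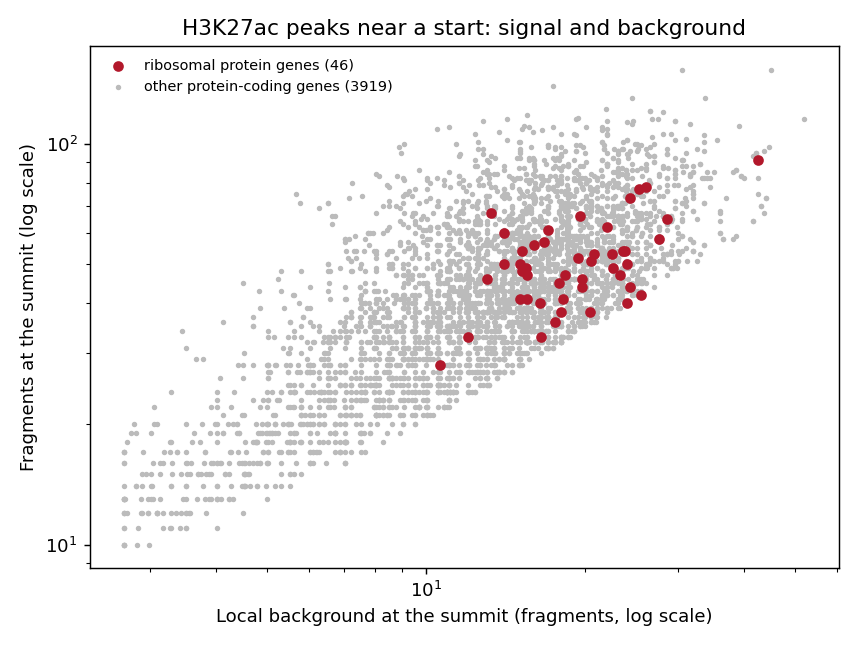
Fragments at the H3K27ac summit (vertical, log scale) against local background in fragments (horizontal, log scale) for genes with a summit within 1 kb of their start, with the 46 ribosomal protein genes in red and the other 3919 protein-coding genes in grey, from 1 library. The red points lie towards the right, at backgrounds of 10.6 to 42.6 fragments, and 42 of them lie above the median of all genes.

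Rpl5, Rpl11, Rpl26, Rps6 and Rps19, known also from p53 control, growth signalling or human disease, carried the mark at 2.03-fold to 3.40-fold near their starts. There Rpl5 had 41 fragments over 15.6 (2.54-fold), Rpl11 48 over 15.2 (3.03-fold) and Rpl26, which binds p53 mRNA, 50 over 24.1 (2.03-fold). Rps6, the substrate of the S6 kinases, had 50 fragments (3.18-fold). Rps19, the gene most often mutated in Diamond-Blackfan anaemia in humans, had 54 over 15.2 (3.40-fold). Rps14, a gene of the region deleted in the human 5q- syndrome, reached 2.61-fold over the whole window. Of the stalk proteins, which recruit the elongation factors, Rplp2 had 58 fragments over 27.6 near its start (2.06-fold) and 3.04-fold at its highest peak.

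The other 2 stalk genes, Rplp0 and Rplp1, were among the 19 members without an H3K27ac peak in the window. Others were Rpl3, Rpl10l, Rpl22, Rpl22l1, Rpl23a, Rpl32l, Rpl38, Rpl39, Rpl39l, Rps4x, Rps10, Rps21, Rps27, Rps27l and Rpsa. Both Rpsa and Rpl3 missed the window narrowly: the nearest peak was 1730 bp from Rpsa and 1731 bp from Rpl3, whose protein lies by the peptidyl transferase centre. For Rplp0 it was 9260 bp away, for Rplp1 24914 bp, for Rps4x 124310 bp and for Rpl10l 1127045 bp. The CCGGAAG letters did not separate the members with the mark, which was present at 19 of 26 with the letters (73.1%) and 32 of 39 without (82.1%). Of the 14 with a pyrimidine run at the start, 9 had a peak.

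Second copies of members were split. Rpl3l, known from striated muscle, had H3K27ac at 2.56-fold, though that peak also overlapped Msrb1. Rpl7l1 had it at 2.98-fold, 472 bp outside the gene and over 2310039H08Rik, and Rpl36al at 2.61-fold, 468 bp outside and over Mgat2. Rpl10l and Rpl39l, known from male germ cells, Rpl22l1, the paralogue of Rpl22, Rps27l, the paralogue of Rps27, and Rpl32l had none. The nearest peak was 242404 bp from Rpl39l, 790757 bp from Rpl22l1 and 6785 bp from Rps27l. Both Rpl22 and Rps27, after which Rpl22l1 and Rps27l are named, also lacked the mark.

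H3K27me3 was rare at these genes. Only 3 of the 85 had a peak in the window (3.53%), against 29.9% of all protein-coding genes and 25.1% of the short ones, and none of the 3 had H3K27ac. At Rpl22, whose loss in mice impairs T cell development, the peak (chr4:152334807-152335886) was 3.95-fold with 15 fragments and began 725 bp beyond the gene. Rps4x, on the X chromosome, had its peak inside the gene (chrX:102185631-102186309, 3.34-fold, 17 fragments), 3201 bp downstream of the start shown above.

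EZH2 was almost absent. After LPS and nigericin 1 member had a peak, Rps27 (1.18%), against 8.99% of all protein-coding genes and 5.32% of the short ones. In untreated cells 0 members had one, against 14.4% and 7.94%. The Rps27 peak (chr3:90211307-90211966) was 3.29-fold, with 10 fragments (95% exact Poisson interval 4.80 to 18.4) over a background of 2.34 and a −log10 q of 0.632, and it began 701 bp beyond the gene, over Nup210l. So 1 member was listed after nigericin and not in untreated cells (2.99% of all and 1.09% of short protein-coding genes), 0 the other way (8.4% and 3.71%) and 0 in both (6% and 4.23%). The weakest listed summit in either EZH2 list had 7 fragments, so fewer in the untreated cells would not have been listed.

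No member had a p53 peak, against 5.53% of all protein-coding genes and 1.39% of the short ones, and 0 of 85 is near the second share. That covers Rpl5, Rpl11, Rpl23 and Rpl26, which act on MDM2 or p53, and Rps27l, a p53 target in human cells. The p53 list held 59 peaks of q at most 0.05, and Mdm2, a textbook p53 target, had none either.

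SIRT1 peaks were frequent and shallow. In Ezh2 knockout cells 20 members had one (23.5%), against 32.2% of all protein-coding genes and 15.6% of the short ones. In Ezh2 wild-type cells 38 had one (44.7%; 60.2% and 32.5%), in p53 knockout cells 42 (49.4%; 56.9% and 31.1%), and in p53 wild-type cells 38 (44.7%; 55.8% and 30.6%). The shares lay below all genes and above short genes in each library. Set beside short genes that also carry H3K27ac, they were no higher: of the 66 members with the mark, 14 had SIRT1 in Ezh2 knockout (21.2%, against 31.5% of the 1918 short genes with the mark), 29 in Ezh2 wild-type (43.9%, 53.5%), 35 in p53 knockout (59.7% of short genes) and 33 in p53 wild-type cells (50%, 55.6%). Of the 19 members without H3K27ac, 15 had SIRT1 in at least 1 list (78.9%), against 48.8% of the short genes without it, and of the 66 with it 59 had (89.4%), against 90.4%.

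The depth of these peaks was that of the lists as a whole. The members' median was 5 fragments in the Ezh2 knockout list and 4 in the other 3, and the median fold of their peaks was the median of the list in each: 3.24 in Ezh2 knockout, 2.75 in Ezh2 wild-type, 2.76 in p53 knockout and 2.90 in p53 wild-type cells. The deepest member peak had 10 fragments. H3K27ac peaks overlapped 10 of 23 member peaks of SIRT1 in Ezh2 knockout cells (43.5%, against 17.8% of SIRT1 peaks at all protein-coding genes), 12 of 50 in Ezh2 wild-type (24%, 12.1%), 13 of 58 in p53 knockout (22.4%, 15.4%) and 22 of 46 in p53 wild-type cells (47.8%, 14.5%). The genes compared differ in the mark itself, present at 77.6% of members and 33.7% of all protein-coding genes, and in length. This overlap was not computed for short genes or for genes with the mark, so a link of SIRT1 to H3K27ac particular to the members was not tested.

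Rpl15 held the one SIRT1 peak with a q-value of at most 0.05. In that library, of Ezh2 wild-type cells, 1.18% of members passed this threshold, against 0.53% of all and 0.182% of short protein-coding genes. No member passed it in the other lists, against 1.25% of all and 0.625% of short genes in Ezh2 knockout, 0.868% and 0.375% in p53 knockout, and 0.425% and 0.159% in p53 wild-type cells. The large subunit gene Rpl15 (chr14:18267823-18270986, minus strand) had no SIRT1 peak in Ezh2 knockout cells and a peak of 6.06-fold in Ezh2 wild-type cells (chr14:18270929-18271261). The wild-type peak had 10 fragments (4.80 to 18.4) over 0.817, a −log10 q of 3.75 and a summit at −55 bp, upstream of the start, within the sequence shown above and beside the CCGGAAG letters. It also overlapped Nkiras1, the neighbouring gene of an NF-κB inhibitor-binding protein. The Ezh2 knockout list went down to 4 fragments, so a smaller summit there would not have been listed. In p53 knockout cells Rpl15 had none, and in p53 wild-type cells it had a peak of 3.12-fold with 5 fragments (1.62 to 11.7), 466 bp downstream of the start. H3K27ac at Rpl15 was 2.17-fold with its summit 225 bp downstream.

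The next highest folds passed no q-value of 0.05. Rpl35a had 2.76-fold with 4 fragments in p53 knockout cells and 4.65-fold with 7 in p53 wild-type cells, both over its start. Rpl18 had at most 4.41-fold with 7 fragments in p53 knockout cells and 2.32-fold in p53 wild-type cells, its highest there. Rpl3l reached 4.28-fold with 7 fragments in p53 knockout cells, over the neighbour Msrb1, and 4.05-fold with 8 in Ezh2 wild-type cells. Rpl32 reached 4.14-fold with 8 fragments in Ezh2 wild-type cells. Counts this small overlap widely: 4 fragments have an interval of 1.09 to 10.2 and 7 one of 2.81 to 14.4.

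Across the 4 SIRT1 libraries 11 members had a peak in none (12.9%), 30 in 1 (35.3%), 28 in 2 (32.9%), 12 in 3 (14.1%) and 4 in all (4.71%). The shares of all protein-coding genes were 21.2%, 16.4%, 19%, 23.1% and 20.3%, and those of the short ones 42.1%, 24.1%, 18.9%, 11.5% and 3.39%. The 4 were Rpl3, Rpl7l1, Rpl10a and Rps19. Among the 12 were Rpl4, Rpl5, Rpl6, Rpl19, Rpl31, Rpl34, Rpl35, Rpl41, Rps3, Rps10 and Rpsa. Of the 11 with none, Rpl10l, Rpl32l, Rpl39l and Rps4x also lacked H3K27ac.

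**Figure D5:**
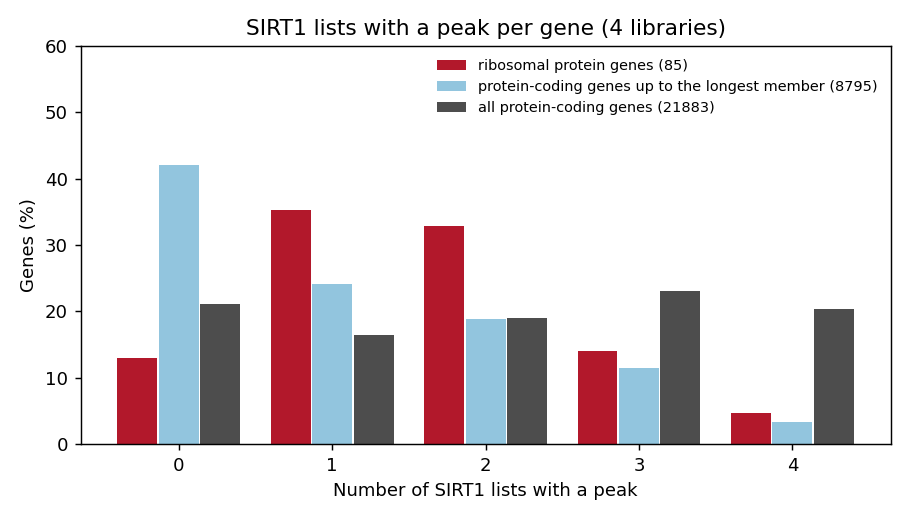
Share of genes (%) by the number of SIRT1 lists, of 4, with a peak in the gene bounds plus 1 kb, for the 85 ribosomal protein genes (red), protein-coding genes no longer than the longest of them (light blue) and all protein-coding genes (grey). Most ribosomal protein genes have a peak in 1 or 2 lists, and 4.71% have one in all 4.

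The lists seldom met at one place. Peaks of at least 2 lists covered a common base at 18 members (21.2%), against 24% of all protein-coding genes and 12.4% of the short ones. For at least 3 lists this held at Rpl10a and Rpl4 (2.35%, against 2.36% and 0.966%), and for 4 lists at 0 (0.274% and 0.091%). At Rpl10a distances are from the nearer of its annotated starts, chr17:28328471 and chr17:28328565. From the second start, the summit lay 383 bp downstream in Ezh2 knockout cells (3.78-fold, 6 fragments), 182 bp downstream in p53 knockout cells (3.86-fold, 6) and 371 bp downstream in p53 wild-type cells (2.31-fold, 4). In Ezh2 wild-type cells the summit lay at −697 bp, upstream of the first start (2.75-fold, 4). The 3 downstream peaks overlapped each other inside the gene. At Rpl4 the shared place was upstream, with summits at −569 bp in Ezh2 wild-type, −630 bp in p53 knockout and −571 bp in p53 wild-type cells, and those peaks also overlapped Zwilch.

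Without replicates, the presence of a peak in one library and its lack in another is a description of 2 lists. For Ezh2, 12 members had SIRT1 in knockout cells and not in wild-type cells (14.1%, against 5.47% of all and 7.13% of short protein-coding genes), among them Rpl5, Rpl11, Rpl22, Rplp0 and Rps6. In 30 the peak was in wild-type cells alone (35.3%, against 33.4% and 24%), among them Rpl15, Rpl23, Rpl26, Rplp1, Rplp2, Rps3, Rps14 and Rps27. In 8 it was in both (9.41%, against 26.7% and 8.45%), which is 40% of the knockout members and 21.1% of the wild-type members. The lists differed in length, 18170 peaks in knockout and 74767 in wild-type cells. With both at the shorter length, 18 of the 85 members were in the knockout list alone, against 16.6% of all and 12.3% of short protein-coding genes, and 13 in the wild-type list alone, against 14.1% and 7.95%. The order of the 2 counts thus turned round, and it did so for both sets of protein-coding genes too.

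For p53, 25 members had SIRT1 in knockout cells and not in wild-type cells (29.4%, against 14.5% and 15.8%), among them Rpl3l, Rpl24, Rps10, Rps13 and Rps27. In 21 it was the other way (24.7%, against 13.4% and 15.3%), among them Rpl7, Rpl15, Rpl23, Rpl26, Rplp2, Rps14, Rps27l and Rpsa. In 17 it was in both (20%, against 42.4% and 15.4%), which is 40.5% of the knockout members and 44.7% of the wild-type members. These 2 lists were of similar length, 59807 and 56323 peaks. The counts of 25 and 21 became 25 and 16 without the 1 kb flank, and 27 and 21 with 50% of the peak inside the window. They became 18 and 17 with 5 kb flanks, 23 and 21 with lists of equal length, and 0 and 0 with q at most 0.05. The gap between the 2 counts thus varied with the setting. Rpl5 illustrates the scatter, with 4 fragments 5712 bp downstream of the start in p53 knockout cells and 4 fragments 416 bp downstream in p53 wild-type cells.

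Genes with related roles, listed by name and not by value, gave a scale for the H3K27ac count. Of 35 genes for translation factors, ribosome assembly and their control, 25 had H3K27ac (71.4%), 0 had H3K27me3 and 1, Eif4e, had EZH2 in untreated cells (2.67-fold). The elongation factor genes Eef1a1 (4.10-fold) and Eef2 (3.24-fold) and the ribosome-bound scaffold Rack1 (3.08-fold) had the mark, as did Fau (2.51), which encodes a ribosomal protein as a ubiquitin-like fusion under another symbol. Of the 10 without it, Bop1, Dkc1, Fbl, Ncl, Nhp2, Nop56, Nop58, Npm1 and Wdr12 encode nucleolar proteins of ribosome assembly, and Eif4b an initiation factor. Larp1, which binds the pyrimidine tracts, stood at 7.53-fold. Of 78 mitochondrial ribosomal protein genes, which serve the organelle's own ribosome, 28 had H3K27ac (35.9%) and 3 had H3K27me3. Both sets are of longer genes than the members, with a median of 13924 bp for the 35 genes and 7690.5 bp for the mitochondrial set, against 3175 bp. Their shares were not matched for length.

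Small nucleolar RNA genes lay inside 30 of the 85 members (35.3%), 59 of them in all, against 1.7% of all protein-coding genes and 0.785% of the short ones. Of 316 annotated pseudogenes named after members, 32 had H3K27ac (10.1%, against 33.7% of all protein-coding genes) and 49 H3K27me3 (15.5%, against 29.9%). EZH2 was listed at 2 after nigericin (8.99% of all protein-coding genes) and 1 in untreated cells (14.4%), and p53 at 1 (5.53%). The pseudogenes are short, with a median of 528.5 bp, and these shares were not matched for length. A peak in the 1 kb flank need not lie on the copy. How reads matching several such copies were treated is not stated in the labels. The members with H3K27ac had a median of 2 such pseudogenes each (0 to 23) and those without it 1 (0 to 13), and the part of these copies in the counts was not tested.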

How the data were processed

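ChIP-seq of bone-marrow macrophages was given as 16 samples, 9 immunoprecipitated and 7 input, with 1 library per group. The deposited files are narrowPeak lists, 1 per library. Per the submitters' processing notes the tools were MACS2 and deepTools and the build GRCm38 (mm10). Versions, aligner, filters and depth in reads are not stated there. The deposited columns are a score, a fold (ratio of summit to background, pseudocount 1), a −log10 p-value, a −log10 q-value and the summit position, all as the authors made them. Fragments and local background were solved from fold and p under the caller's Poisson model, whole to within 0.0001 for at least 99.96% of peaks in each list, with exact 95% Poisson intervals. Most peaks of the EZH2, p53 and SIRT1 lists have a q above 0.05.

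Genes, starts and promoter windows came from RefSeq tables (GRCm38.p6). Overlaps of at least 1 bp with gene bounds plus 1 kb were counted in Python 3.11.15 with pandas 2.3.3, and the counting was tested on simulated data. Motif shares count a gene once over all its windows (1.18 per member, 1.22 per gene). The members and lists were chosen with earlier results of these data known. Genes were named by rule: the 10 highest and 5 lowest H3K27ac folds, all without H3K27ac, all with EZH2, p53 or H3K27me3, SIRT1 at q of at most 0.05 or in 3 or more lists, second copies and a fixed list. Rpl18, Rpl32, Rpl35a, other examples of near-start summits and of lists that differ were chosen after their values were seen. A few of the genes so chosen are not reported here. Alternatives changed the q-value, the window, the overlap, the symbols, the shared regions and the list length.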

Additional observations from a re-analysis of the deposited data

How the results depend on the processing

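Of 103 alternative values, 81 kept their count within 1.5 times or their median fold within the spread, among them every count and median for H3K27ac (61 to 69 members, and 46 of the 65 with a known start when the summit had to lie within 1 kb of it, an alternative chosen after seeing the data) and every p53 count (0). Some of the 81 could not move. All 51604 H3K27ac peaks had a q-value of at most 0.05, so that setting left them as they were. Counts of 0, as for p53 and for EZH2 in untreated cells, could only stay at 0 where a setting takes away peaks, flank or members. The 22 others rest on small counts or on weak peaks. With q at most 0.05 the members with SIRT1 came to 0 in Ezh2 knockout, 1 in Ezh2 wild-type, 0 in p53 knockout and 0 in p53 wild-type cells, those in Ezh2 knockout alone to 0, in Ezh2 wild-type alone to 1, in p53 knockout alone to 0 and in p53 wild-type alone to 0, and those with EZH2 after nigericin, in all and alone, to 0. Without the 1 kb flank, or with 50% of the peak inside the window, EZH2 after nigericin fell to 0 members in all and alone, and H3K27me3 to 1. With 5 kb flanks EZH2 was listed at 4 members after nigericin (2 of them alone) and 3 in untreated cells (1 alone), and H3K27me3 at 8. With lists of equal length SIRT1 in Ezh2 wild-type cells alone came to 13 members. The cause was not tested beyond what each alternative changes by construction. Leaving out the 2 regions listed in all 7 EZH2, p53 and SIRT1 lists, and stricter symbols (81 members), moved no count past 1.5 times. No paired analysis was possible because each group is 1 library and the labels carry no replicate numbers. With 3 to 6 fragments behind nearly all SIRT1 peaks here, a member's presence in one list and not in another was not resolvable at this depth.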
